A study of Homo sapiens with 6 samples.

Results

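ERRFI1, 3 receptors of the EGFR family (EGFR, ERBB2 and ERBB3), 4 of their ligands (AREG, EREG, TGFA and HBEGF), the receptor MET and the inhibitor LRIG1 were examined in HCT116 cells with and without silencing of PLEK2. These 10 of the 17047 genes with deposited values were found by gene symbol. They were chosen by name with earlier results of these same libraries known, the change within same-numbered pairs included, so their differences between the groups are given as a description. Where the calls of fits across all genes are given for members, they place the members among all genes and are no independent test. HCT116 is an established line of human colorectal carcinoma cells. The shNC group held 3 libraries of cells with a non-targeting shRNA, and the PLEK2 shRNA group held 3 libraries of cells with an shRNA against PLEK2. Both groups were the same line, transduced with virus, and no other agent is named for them. The methods list 1 PLEK2 shRNA, so the group rests on a single target sequence, and the time between transduction and harvest was not given in the sources used here. The sequencing was meant to show which transcripts change when proliferation is impaired by loss of PLEK2.

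Receptors of the EGFR family are tyrosine kinases that pair up at the cell surface when a ligand is bound, and pass the signal on to ERK and to PI3K and AKT. ERBB2 binds no known ligand and acts as a partner, whereas ERBB3 has a weak kinase and signals through its partners. The ligands are made as membrane proteins and are released by ADAM proteases. AREG, EREG, TGFA and HBEGF all bind EGFR, and AREG and EREG are abundant in many colorectal tumours that depend on EGFR. ERRFI1 (also called MIG6) binds the kinase domain of the receptors and blocks it, and its transcript is itself raised by EGFR and ERK signalling, so that it works as a feedback inhibitor. LRIG1 is a membrane protein that lowers receptor levels, and it marks stem cells of the intestinal crypt. MET is the receptor for hepatocyte growth factor and is also restrained by ERRFI1.

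The shRNA target and the stretches upstream of the 3 most abundant members are shown first. Whether the upstream stretches bear on the levels was not tested. The PLEK2 shRNA is directed at the stretch below, in which the capitals mark the 7 bases that pair with the seed of the guide strand.
PLEK2 shRNA target: gctggtgtactacAAGCTTGa
The whole target was found in the canonical transcript of none of the 10 members (0). The 7-base seed site lay in the 3′ UTR of EGFR and LRIG1, which are 2 of the 10, and in that of 1310 of 12442 tested genes with a 3′ UTR (10.5%, GENCODE 44). ERRFI1 held no seed site there. The following 250 bases upstream of the RefSeq start site (GRCh38.p14) belong to the 3 members with the most RNA, and capitals mark matches to the motifs named after them.
ERRFI1, chr1:8026310-8026559, minus strand: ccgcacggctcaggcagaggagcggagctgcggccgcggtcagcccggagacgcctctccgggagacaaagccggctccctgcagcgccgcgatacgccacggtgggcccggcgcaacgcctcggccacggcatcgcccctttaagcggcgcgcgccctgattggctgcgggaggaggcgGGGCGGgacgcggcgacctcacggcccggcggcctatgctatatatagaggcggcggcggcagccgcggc
AREG, chr4:74444886-74445135, plus strand: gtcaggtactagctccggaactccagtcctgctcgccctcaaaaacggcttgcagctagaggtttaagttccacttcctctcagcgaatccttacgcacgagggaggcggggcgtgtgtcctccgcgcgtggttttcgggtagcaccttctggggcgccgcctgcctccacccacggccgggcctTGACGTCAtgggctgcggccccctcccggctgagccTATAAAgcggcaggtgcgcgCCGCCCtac
EREG, chr4:74364895-74365144, plus strand: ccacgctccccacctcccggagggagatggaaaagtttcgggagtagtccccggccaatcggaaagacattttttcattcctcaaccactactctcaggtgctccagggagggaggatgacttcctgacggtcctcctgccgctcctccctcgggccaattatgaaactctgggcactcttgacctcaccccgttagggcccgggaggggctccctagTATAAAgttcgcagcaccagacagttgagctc

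The motifs searched on both strands were the GC box GGGCGG, the cyclic AMP response element TGACGTCA, the AP-1 site TGANTCA and the TATA motif TATAAA. None of these sets of letters overlapped another where they were found in the 3 stretches. AREG held the response element 65 bases before its start, and it was the only member to do so among the 9 with a promoter in the table, whereas 2.81% of 10191 promoters of tested genes hold it. AREG and EREG both had the TATA motif, at 29 and 32 bases before the start, against 5.1% of these promoters. The GC box was present in 7 of the 9, and in 68.2% of all, and the AP-1 letters were present in ERBB2 alone among the 9 and in 3.81% of all. The match is of these letters only, and other forms of the motifs, such as other TATA elements, were not searched. AREG and EREG lie on the same strand of chromosome 4, and relative to the start of AREG, EREG starts at -80 kb. Of the related ligands in the same region, EPGN starts at -136.7 kb, and BTC, on the minus strand, has its lowest coordinate at 299.6 kb.

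PLEK2 itself was lower in every PLEK2 shRNA library, at 16, 32.2 and 34.9 CPM in replicates 1, 2 and 3, against 85.9, 72.6 and 82.8 CPM with shNC. CPM here are counts scaled to library size by edgeR's TMM method. Of 9 epithelial markers, 8 were analysed and 7 of them (EPCAM, CDH1, KRT8, KRT18, KRT19, CLDN4 and CDX2) were above 1 FPKM, whereas VIL1 was not. Their sum was between 5120 and 5880 FPKM with shNC and between 4270 and 5440 FPKM with PLEK2 shRNA, and whether this bears on the members was not tested. Of 6 fibroblast, 5 leukocyte and 4 endothelial markers, 4 of each type had deposited values, whereas DCN, LUM and PTPRC had none. Only COL1A1 and CD68, a lysosomal protein that is not limited to macrophages, were above 1 FPKM. The highest sums were 6.02, 31.6 and 0.2 FPKM for the fibroblast, leukocyte and endothelial markers. Totals of the estimated counts per library lay between 14377532 and 15602732. Replicate 1 of both groups stood apart from the other 4 libraries in the first principal component. Same-numbered libraries of the 2 groups also moved together, and so values within pairs are given beside those of the groups. In bulk RNA, fewer transcripts per cell and fewer cells with the transcript cannot be told apart.

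The members covered a wide range of RNA levels. On the deposited FPKM scale, which divides by transcript length and so allows genes to be compared, AREG had the highest mean over the 6 libraries (236 FPKM) and LRIG1 the lowest (1.37 FPKM), a 172-fold range. Between them came ERRFI1 (205), EREG (101), MET (53.1), ERBB2 (22.2), TGFA (16.3), EGFR (13.9), ERBB3 (7.96) and HBEGF (5.87 FPKM). Of the 9 neighbours in this order, 7 were separate, in that every library of the higher gene lay above every library of the lower one. The 2 that overlapped were AREG with ERRFI1, and TGFA with EGFR. ERRFI1 was thus among the most abundant transcripts of these cells, at rank 318 of 17047 by mean FPKM, with AREG at rank 272. All 10 members passed the filter on low counts.

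**Figure D1:**
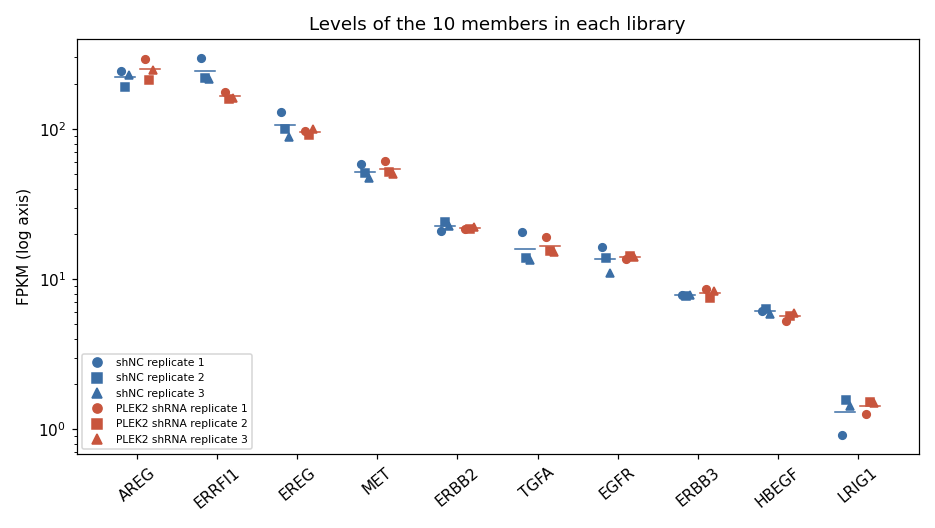
FPKM of the 10 members (log axis) in each of the 6 libraries, ordered by mean level, with circles, squares and triangles for replicates 1, 2 and 3 and a line at each group mean. ERRFI1 and AREG lie at the top, and ERRFI1 is the 1 member whose PLEK2 shRNA libraries all lie clearly below its shNC libraries.

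Among the inhibitors, ERRFI1 was lower in the cells with PLEK2 shRNA. It was the 1 member that was lower in all 3 pairs, as were 21.1% of all genes tested. ERRFI1 lies on the minus strand of chromosome 1 (GRCh38, 8004404 to 8026309). It was measured at 927, 681 and 661 CPM in shNC replicates 1, 2 and 3, and 542, 489 and 490 CPM in PLEK2 shRNA replicates 1, 2 and 3. Its groups did not overlap, as holds for 9.21% of all genes tested in either direction, and shNC replicate 1 was far above the other shNC libraries. On average it had 756 ± 148 CPM (SD, n = 3) with shNC, compared with 507 ± 30.0 CPM (SD, n = 3) after silencing. Within pairs 1, 2 and 3, the log2 ratio was -0.77, -0.48 and -0.43. The fitted log2 fold change was -0.58 (standard error 0.13), and -0.56 (standard error 0.07) with the replicate number as a block, which is a change of -32.2%. When shNC replicate 1 was left out it was -0.39, and without replicate 1 of both groups it was -0.45 with the block.

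The count of members called shows how the spread between replicates bears on this value. In edgeR's quasi-likelihood test without the block, none of the 10 members (0) and none of all 12959 genes tested (0%) came under a Benjamini-Hochberg adjusted p of 0.05, while 400 genes and 1 member had an unadjusted p under 0.05. This test thus did not call the silenced gene PLEK2 either, at a log2 fold change of -1.54 (adjusted p 0.684). The adjusted p of PLEK2 was 0.00106 in the edgeR fit with the block. With the block, ERRFI1 was the 1 member called, and it was among 94 genes called lower (0.725% of those tested). A further 16 genes, or 0.123%, were called higher, and no member was among them. With library totals in place of TMM, the block fit called 109 genes lower and 83 higher, so this split depended on the scaling. DESeq2 called 12 genes without the block, with no member among them, and 57 with it, ERRFI1 included. ERRFI1 was also called with the block when any 1 pair was left out, and when library totals replaced TMM. As ERRFI1 was chosen with this contrast known, these calls describe it and support nothing further.

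**Figure D2:**
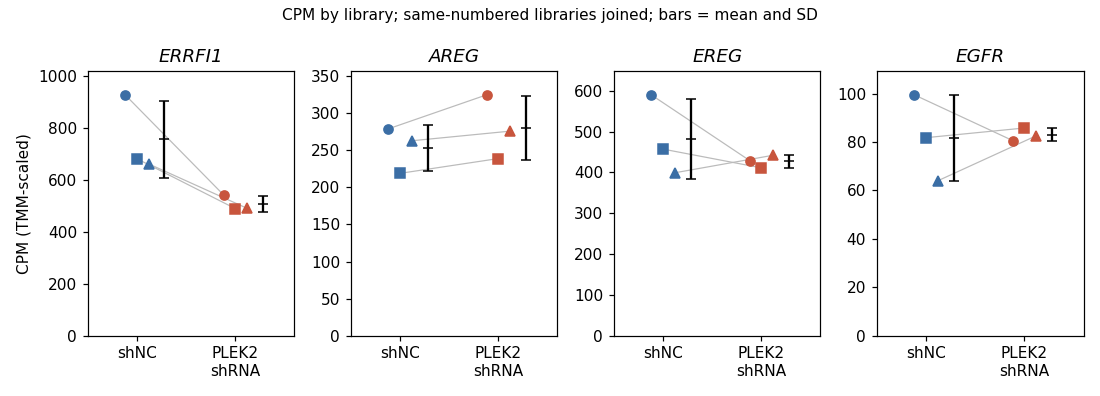
CPM of ERRFI1, AREG, EREG and EGFR in each library (circles, squares and triangles for replicates 1, 2 and 3), with same-numbered libraries joined by grey lines and the group mean with its SD in black. The lines of ERRFI1 all go down and those of AREG all go up, whereas those of EREG and EGFR go both ways.

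The 2 most abundant members had no fixed order in the shNC libraries, whereas AREG was the higher in every PLEK2 shRNA library. In shNC cells, ERRFI1 had 298.58, 219.37 and 216.6 FPKM in replicates 1, 2 and 3, and AREG had 242.62, 190.33 and 230.75 FPKM, so that ERRFI1 was the higher in 2 of 3 libraries. In the PLEK2 shRNA cells, ERRFI1 had 176.16, 159.48 and 159.96 FPKM, and AREG had 293.67, 210.64 and 245.95 FPKM. There, every AREG value was above every ERRFI1 value. The ratio of ERRFI1 to EGFR, taken per length, was 18.3, 15.9 and 19.7 in shNC replicates 1, 2 and 3 and 12.8, 11.1 and 11.4 in the PLEK2 shRNA replicates. These ratios did not overlap between the groups. The ratios and the order both contain ERRFI1 itself, whose change was known when it was chosen, and are no separate evidence.

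LRIG1, the other inhibitor, was barely present. Control cells had 4.10, 6.91 and 5.81 CPM and silenced cells 5.66, 7.03 and 7.01 CPM, and the groups overlapped. Its log2 ratio was 0.46, 0.02 and 0.27 in pairs 1, 2 and 3, and the fitted log2 fold change was 0.23 (standard error 0.21). Between 62.76 and 107.24 estimated counts stood behind each value, so that counting error alone was about 10.5%. Its exons overlap those of SLC25A26 on the opposite strand, and none of its 6 counts was whole, which leaves the split of shared reads uncertain.

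Of the 3 receptors of the EGFR family, EGFR and ERBB2 overlapped between the groups, and ERBB3 differed by less than its counting error. EGFR had 99.5, 81.8 and 64.0 CPM in shNC replicates 1, 2 and 3 and 80.6, 85.8 and 82.6 CPM in the PLEK2 shRNA replicates. Its shNC libraries were thus more spread (SD 17.7 CPM) than its PLEK2 shRNA libraries (SD 2.62 CPM), which all lay inside the shNC range. The pairs went both ways, with log2 ratios of -0.30, 0.07 and 0.37, and the log2 fold change was 0.02 (standard error 0.14).

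ERBB2, the partner receptor without a ligand, had 94.9, 110 and 102 CPM with shNC and 95.2, 96.5 and 99.8 CPM with PLEK2 shRNA. These groups overlapped, and the log2 fold change was -0.08 (standard error 0.08). Exons of ERBB2 overlap those of PGAP3 and MIEN1 on the opposite strand, and 5 of its 6 counts were whole. ERBB3 had 37.1, 37.2 and 37.2 CPM with shNC and 37.4, 37.4 and 37.7 CPM with PLEK2 shRNA. The 2 groups did not overlap on this scale, as holds for 9.21% of all genes tested, but the log2 fold change was 0.01 (standard error 0.08) and the counting error of its counts was 4.23%, far more than the gap. On the FPKM scale its groups overlapped. ERBB4 was looked for by symbol and was not among the genes with deposited values. ERBB2 had between 1.27 and 2.06 times the FPKM of EGFR in the shNC libraries and between 1.5 and 1.59 times in the PLEK2 shRNA libraries.

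MET, at 356, 303 and 275 CPM with shNC and 360, 310 and 298 CPM with PLEK2 shRNA, was the receptor with the most RNA among the members. It was higher in the PLEK2 shRNA library of each pair by little (log2 ratios 0.02, 0.03 and 0.11), and the groups overlapped. The log2 fold change was 0.05 (standard error 0.11). Its level followed the replicate number in both groups, with replicate 1 the highest of each.

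Among the ligands, AREG and EREG made up most of the RNA. AREG had 279, 219 and 263 CPM with shNC and 325, 239 and 276 CPM with PLEK2 shRNA. It was higher within each pair (log2 ratios 0.22, 0.13 and 0.07), but the groups overlapped, since the pairs differed from each other by more than the groups did. The log2 fold change was 0.14 with either fit, with a standard error of 0.13 without the block and 0.05 with it. It lay between 0.02 and 0.24 as each library was left out in turn, the lowest without PLEK2 shRNA replicate 1. Along with AREG, ERBB3, MET and LRIG1 were higher in the PLEK2 shRNA library of all 3 pairs, which makes 4 of 10 members, and 19.9% of all tested genes did the same. This count includes log2 ratios of 0.01, 0.01 and 0.02 for ERBB3 and of 0.02 in pair 2 for LRIG1. Their counting errors were 4.23% and 10.5%, larger than these ratios, so nothing is read from the count. ERRFI1 was the 1 member lower in all 3 pairs, as were 21.1% of all tested genes.

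EREG had 590, 457 and 399 CPM in shNC replicates 1, 2 and 3 and 429, 411 and 442 CPM in the PLEK2 shRNA replicates. The groups overlapped, and shNC replicate 1 was again the highest library. Its pairs differed in direction, with log2 ratios of -0.46, -0.15 and 0.15, and the log2 fold change was -0.17 (standard error 0.13). Without shNC replicate 1 the log2 fold change of EREG was 0.01, so that its difference was carried by that library. With the block and without replicate 3 of both groups, EREG was called lower, at -0.30.

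TGFA had 87.9, 58.6 and 56.3 CPM with shNC and 78.6, 64.6 and 63.0 CPM with PLEK2 shRNA. Replicate 1 was far above the other libraries in both groups, and the log2 fold change was 0.02 (standard error 0.17). HBEGF had 13.8, 14.2 and 13 CPM with shNC and 11.4, 12.7 and 13 CPM with PLEK2 shRNA. These groups met at 13 CPM. The change was -0.15 on the log2 scale (standard error 0.12), and each count had a counting error of about 7.16%.

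**Figure D3:**
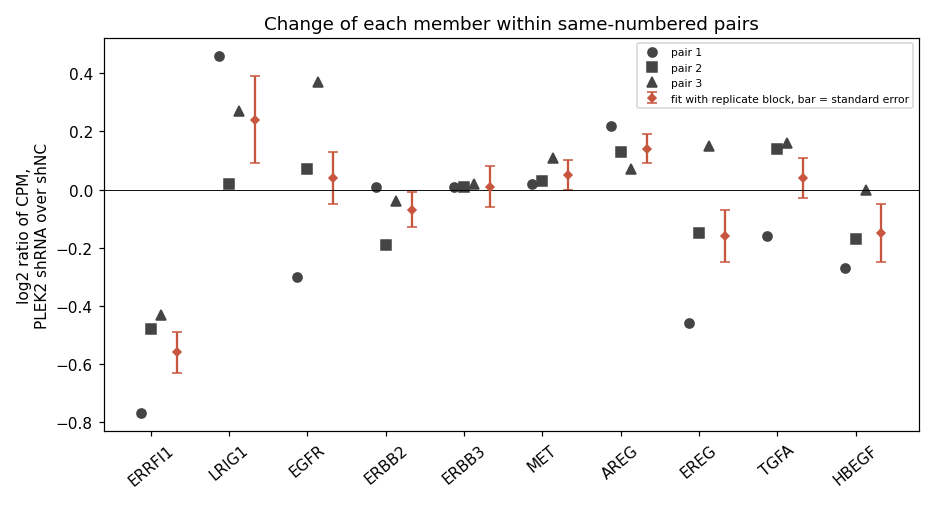
Log2 ratio of CPM, PLEK2 shRNA over shNC, for each member in pairs 1, 2 and 3 (black) and the log2 fold change of the fit with the replicate block with its standard error (red). ERRFI1 lies between -0.77 and -0.43 in its pairs, and the pairs of EGFR lie between -0.30 and 0.37.

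Together the 11 ligands of the family summed to between 315 and 402.4 FPKM per shNC library and between 327.2 and 420.1 FPKM per PLEK2 shRNA library. AREG took between 60.3% and 67.4% of that sum with shNC and between 64.4% and 69.9% with PLEK2 shRNA, and EREG took between 25.9% and 32.1% and between 23.2% and 28%. The ligands that are no members (EGF, BTC, EPGN and NRG1 to NRG4) together held at most 1.33%. EGF was between 0 and 0.06 FPKM, and NRG4, which binds ERBB4, was the highest of them at between 1.42 and 2.01 FPKM.

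The members were also compared between replicate numbers. This comparison was not the one between groups, but it used the same levels in the same libraries that were known when the members were chosen, and so it is given as a description. With the group held in the fit, edgeR's quasi-likelihood F test of the 2 replicate number terms called 4 of the 10 members, TGFA, AREG, MET and ERRFI1. It called 28.4% of all genes tested, so that the members were not set apart by this count. All 4 were higher in replicate 1 than in replicates 2 and 3, by 0.46 for TGFA, 0.31 for ERRFI1, 0.28 for AREG and 0.27 for MET on the log2 CPM scale. AREG was also lower in replicate 2 than in replicate 3, with a log2 difference of -0.24. ERBB3 was the most even member, with a log2 difference of -0.01 between replicate 1 and the others. EGFR and EREG were not called, and in both shNC replicate 1 was high while PLEK2 shRNA replicate 1 was not. Both were called without PLEK2 shRNA replicate 1 or without PLEK2 shRNA replicate 3, and EREG also without shNC replicate 3 and with all genes of at least 1 count kept. Without shNC replicate 2 or without PLEK2 shRNA replicate 2, the called members were MET and TGFA alone, and ERRFI1 was also not called without shNC replicate 1. Limma on log2(FPKM + 1) of all genes called no member (0).

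The rest of the pathway was followed through 9 lists written from general knowledge, with 138 genes, of which 123 passed the filter. None of these genes (0) was called by edgeR without the block, where 7 had an unadjusted p under 0.05. With the block, 2 were called, both lower (1.63% against 0.849% of all genes), namely ERRFI1 and SH3KBP1. ERRFI1, 1 of the 2, was chosen with this contrast known, and the lists were also written with earlier results of these data known. Neither call is thus free of that choice, and nothing is read from the share. SH3KBP1 (also called CIN85) is an adaptor that links the ubiquitin ligase CBL to the endocytosis of EGFR. It had a log2 ratio of -0.50, -0.32 and -0.32 in the 3 pairs, and its fitted change was -0.38 on the log2 scale with the block (standard error 0.06), for an adjusted p of 0.0119 by edgeR. Without replicate 2 of both groups SH3KBP1 was not called.

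Among 14 receptor inhibitors and ubiquitin ligases tested, ERRFI1 was the 1 called. With the block, 10 had a log2 fold change above 0 and 4 below, against 6425 above and 6534 below among all genes tested. The median was 0.093 against -0.002 for all genes. CBLB, a ubiquitin ligase of the receptors, had log2 ratios of 0.45, 0.39 and 0.35 and an adjusted p of 0.0902 (edgeR with the block), which did not pass. CBLC, a ligase of the same family, went the other way in all 3 pairs, with log2 ratios of -0.15, -0.24 and -0.26 and an adjusted p of 0.113 (edgeR with the block). Among 14 genes of receptor endocytosis and sorting, SH3KBP1 was the 1 called and the median was 0.015. Of 6 genes of ligand shedding, 0 were called, and the highest was ADAM10, the protease that releases several ligands, at 0.20 (adjusted p 0.109, edgeR with the block). ADAM17, the main protease for AREG and TGFA, was at 0.17 (adjusted p 0.228, edgeR with the block).

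Of 26 genes of receptor-proximal signalling, 0 were called, with 13 above and 13 below a log2 fold change of 0 and a median of 0.004. AKT2 was at -0.18 (adjusted p 0.104, edgeR with the block) and BRAF at 0.22 (adjusted p 0.111). Of 32 genes known to be induced by EGF, 0 were called and 19 were below 0, as were 6534 of all 12959 genes tested. The median of the 32 was -0.020. The members with the smallest unadjusted p were FOSL1, a component of AP-1, at -0.26 (adjusted p 0.0708, edgeR with the block), and DUSP5, a phosphatase of ERK, at -0.19 (adjusted p 0.118).

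Of 7 tested genes of the MET axis, 0 were called, and 6 were below 0, MET being the exception. Among all 12959 genes tested, 6534 were below 0. ST14, a protease that activates hepatocyte growth factor, was at -0.21 (adjusted p 0.0759, edgeR with the block), and MST1R, the relative of MET, was at -0.12 (adjusted p 0.315). HGF was looked for by symbol and was not among the genes with deposited values. Of 14 other receptor tyrosine kinases, 0 were called. AXL was at -0.39 (adjusted p 0.051, edgeR with the block) and EPHA2 at -0.23 (adjusted p 0.111). AXL was called when library totals replaced TMM with the block.

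**Figure D4:**
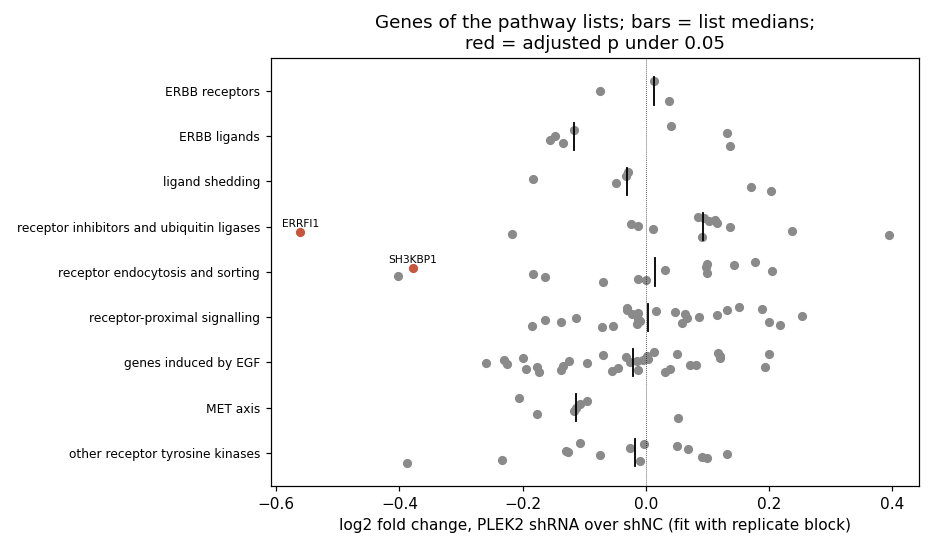
Log2 fold change with the replicate block (horizontal axis) of each tested gene in the 9 pathway lists, with a bar at each list's median and red for genes with an adjusted p under 0.05. ERRFI1 and SH3KBP1 are the 2 red points, and the medians lie between -0.117 and 0.093.

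The genes whose level over the 6 libraries was most like that of ERRFI1 were FAM177A1 (r = 0.997), HRH1 (0.991), DNAL1 (0.991), USP38 (0.985) and SEMA7A (0.984), by Pearson's r of log2 CPM among 10159 genes. This is a description over 6 libraries that share the replicate pairs and the groups, and a search through so many genes finds high values. HRH1, a histamine receptor, had 20.9, 17.1 and 16.7 CPM with shNC and 13.8, 13.7 and 13.2 CPM with PLEK2 shRNA. SEMA7A, a membrane-bound semaphorin, had 39.7, 35.0 and 32.9 CPM with shNC and 30.0, 26.9 and 26.9 CPM with PLEK2 shRNA. Both had shNC replicate 1 highest and no overlap between the groups, as ERRFI1 did, which follows from their being picked for likeness to it. The groups did not overlap in 9.21% of all genes tested.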

How the data were processed

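Polyadenylated RNA of 6 HCT116 libraries was sequenced as single-end reads. The authors deposited estimated counts per gene and FPKM values per library. The header gives the latter no unit, and they were read as FPKM from their totals. The submitters' processing notes name HISAT2 2.0.4, Bowtie2 2.2.5, RSEM 1.2.12 and DESeq2 1.4.5, and the mouse build GRCm38.p6, which goes against the human gene symbols of the table. The build and annotation behind the counts are thus uncertain. Whether counting used the strand was not given in the sources used here. The deposited group means were not used, and 0 columns were left without a sample.

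Counts were rounded, filtered with filterByExpr, scaled by TMM and tested with edgeR 4.0.16 (R 4.3.3), with Benjamini-Hochberg adjustment over 12959 genes. Standard errors are the log2 fold change divided by the square root of F. Counting errors are 1 divided by the square root of the mean count, and cover counting only. No 2 libraries of the same group agreed within sampling noise (chi-square per gene at least 2.97). Same-numbered libraries were correlated in their departures from the group mean (0.736, 0.558 and 0.554 over 10160 genes). Replicates 2 and 3 were also correlated across the groups, though less. The value was 0.355 for shNC 3 with PLEK2 shRNA 2, and 0.358 for shNC 2 with PLEK2 shRNA 3. Replicate 1 of either group was negatively correlated with the other numbers (-0.629 to -0.551). The labels give the numbers but no shared day or culture, so p-values measure the spread between these libraries, which may be technical. With 3 against 3, an exact permutation test cannot go below a two-sided p of 0.1, and none was run. Scripts were tested on simulated counts.

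Members and lists were chosen with earlier results of these data known. Named genes are the members, PLEK2, called genes of the lists or otherwise up to 2 with the smallest unadjusted p, further ligands, and the 5 genes most like ERRFI1 (mean log2 CPM over 3, prior count of 2). That unadjusted p is of the fit without the block, whereas the adjusted p given for list genes is of the fit with it. With the block, SPINT1 came before MST1R in the MET axis. CBLB and CBLC were named after their values were seen. Alternatives were DESeq2 1.42.0, limma 3.58.1 on log2(FPKM + 1) or log2(FPKM + 0.1), other scalings and filters, the block, and libraries or pairs left out. Gene positions and 3′ UTRs come from GENCODE 44 (GRCh38), and promoters from RefSeq (GRCh38.p14). Protein sequences were not analysed here.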

Additional observations from a re-analysis of the deposited data

How the results depend on the processing

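Without the block, the count of called genes (0) stayed 0 under DESeq2's size factors, library totals, both other filters and limma, was 12 with DESeq2, and ranged from 0 to 1 as each library was left out. With the replicate block it was 110 (16 higher, 94 lower), with library totals 192 (83 higher, 109 lower) and with DESeq2 57 (7 higher, 50 lower), and from 18 to 528 as each pair was left out (528 without replicate 1, 18 without replicate 2, 297 without replicate 3). The pairing comes from the shared numbers and the correlations above. Members called went from 0 to 1 (ERRFI1) in each of these fits with the block, and to 2 (with EREG) without replicate 3. List genes called went from 0 to 2 with the block or with DESeq2 and the block, 3 with library totals and the block, and 1 to 8 as each pair was left out (8 without replicate 1, 6 without replicate 3). Left without 1 library at a time, both counts were 0. The count of genes that differed between replicate numbers (3684) was 1765 with DESeq2 and 0 with limma on log2(FPKM + 1) of all genes, where members called were also 0 in place of 4. As each library was left out it ranged from 1905 to 3858, and members called from 2 to 6. The cause of these changes was not tested.

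ERRFI1 was below 0 in all 20 alternatives (-0.66 to -0.39), as was HBEGF (-0.21 to -0.08). AREG (0.02 to 0.24), LRIG1 (0.06 to 0.42) and ERBB3 (0.01 to 0.05) were above 0 in all 20. The alternatives refit the same libraries or part of them, so a shared sign is no separate evidence. In the fit without the block, ERBB3 was at 0.01 (standard error 0.08) and LRIG1 at 0.23 (standard error 0.21). EGFR (-0.12 to 0.22), TGFA (-0.08 to 0.27), MET (-0.04 to 0.17) and EREG (-0.30 to 0.01) took both signs, and ERBB2 lay between -0.12 and 0. Library totals raised the median of all genes by 0.0312.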
